A study of Ramazzottius varieornatus with 48 samples.

Results

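Thioredoxin-2 (g11519.t1), peroxiredoxin-2 (g6996.t1) and a Cu-Zn superoxide dismutase (SOD, g456.t1) of the tardigrade Ramazzottius varieornatus are the 3 transcripts described here, of 14532 in the expression table. They were chosen by identifier as 3 antioxidant proteins, with earlier results of these data known. The names are the closest Swiss-Prot matches in other species that the study lists. The order and the size of their changes after ultraviolet C (UVC) exposure were measured in whole animals of the strain YOKOZUNA-1, which survive drying and also tolerate high doses of radiation while hydrated. Active animals reared at 22 °C on Chlorella were exposed to 2.5 kJ/m2 of UVC after the surface water was removed, a step that does not dry them out, and were then kept in water in the dark. In the Short time course they were sampled hourly from 1 to 6 h and then at 9 and 12 h after exposure. In the Long time course they were sampled at 12, 18 and 24 h and then at 36, 48 and 72 h. Each course had its own non-exposed animals, collected at 0 h only, so a change after exposure cannot be told apart from time in culture, and the Long plates were given food again at 12 h. Each of the 16 groups had 3 libraries of 30 pooled animals, 48 libraries in all. The study calls them biological replicates, and chose the 3 for each condition by their RIN values, a score of RNA integrity.

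The 3 proteins act along 1 chain. Superoxide, a by-product of oxygen use that also forms under radiation, is turned by superoxide dismutase into hydrogen peroxide and oxygen. Peroxiredoxins reduce the peroxide to water with a reactive cysteine, which is oxidised in the process, and thioredoxin, a small dithiol protein, reduces that cysteine again. Thioredoxin reductase then restores thioredoxin with electrons from NADPH.

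Levels are in TPM, the share of transcripts in a library scaled to 1000000, which already allows for transcript length, so that levels of different transcripts can be compared within a library. All 3 were abundant. In the Short libraries thioredoxin-2 ranked 44 of 14532 by mean TPM, peroxiredoxin-2 134 and the SOD 676, and none was listed at 0 in any of the 48 libraries. Thioredoxin-2 lies on scaffold BDGG01000005 (Rvar_4.0, start 2711577, end 2711990, plus strand, gene RvY_10794) and the SOD on BDGG01000001 (start 1857172, end 1858330, minus strand, gene RvY_00650). No coordinates were used for peroxiredoxin-2, and the exons and untranslated regions of the 3 genes were not analysed here.

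**Figure D1:**
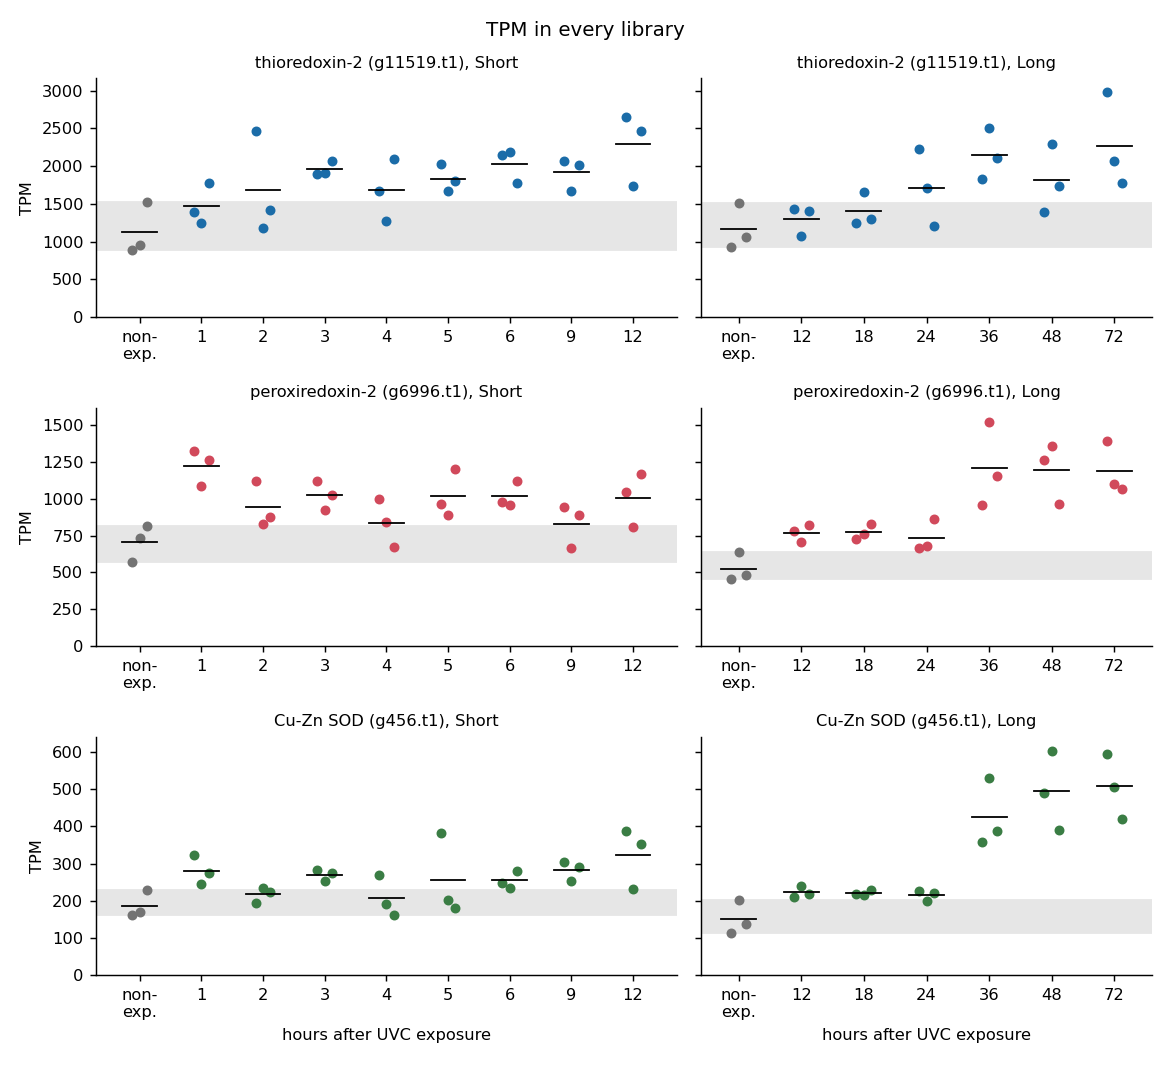
TPM of the 3 transcripts (rows) in every library of the Short (left) and Long (right) time course against hours after UVC exposure, with 1 point per library, a black line at the mean of each group of 3 and a grey band over the range of the non-exposed libraries. In the Long course all 9 SOD and peroxiredoxin-2 points from 36 to 72 h stand above the 9 points from 12 to 24 h.

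The SOD rose late. In the Short course it was 1.09 to 1.71 times its non-exposed level and was called at no time point. In the Long course it was 1.46 to 1.51 times that level from 12 to 24 h, without a call, and 2.84 to 3.41 times from 36 to 72 h, where it was called at all 3 time points. A transcript is called here where limma on log2(TPM + 1) gives a Benjamini-Hochberg adjusted p under 0.05 over the 12088 transcripts that average 1 TPM or more, and a log2 fold change over 1 in size.

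The SOD stood at 114, 203 and 137 TPM, replicates 1 to 3 in order, in the non-exposed animals of the Long course (151 ± 46.1, SD, n = 3). At 12 h it was at 210, 240 and 218 TPM (223 ± 15.6), at 18 h at 218, 215 and 230 TPM (221 ± 7.98) and at 24 h at 227, 198 and 220 TPM (215 ± 15.0). The 9 libraries from 12 to 24 h thus lay within 198 to 240 TPM and, apart from replicate 2 at 24 h, above the 3 non-exposed ones, but the log2 fold changes of 0.60 at 12 h, 0.59 at 18 h and 0.55 at 24 h did not pass the test (adjusted p from limma of 0.240, 0.237 and 0.338). Of all transcripts tested, 8.22% at 12 h, 10.2% at 18 h and 5.01% at 24 h had libraries wholly above the non-exposed ones, and 0.546%, 0.521% and 0.149% were called higher.

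At 36 h the SOD was at 358, 529 and 388 TPM (425 ± 91.2, SD, n = 3). At 48 h it was at 488, 603 and 391 TPM (494 ± 106) and at 72 h at 595, 507 and 420 TPM (507 ± 87.5). All 9 of these libraries were above every one from 12 to 24 h, as were those of 0.984% of all transcripts tested. The log2 fold change against the non-exposed libraries was 1.51 (SE 0.222, adjusted p from limma 0.00465) at 36 h, 1.72 (adjusted p 0.00124) at 48 h and 1.77 (adjusted p 0.00129) at 72 h. Over all transcripts tested, 0.811% were called higher at 36 h, 1.4% at 48 h and 2.12% at 72 h, and 10.3%, 11.5% and 10.3% had no overlap in this direction. The levels at 36, 48 and 72 h overlapped, and the steps between them were 0.22 and 0.04 on the log2 scale with adjusted p of 1. The mean of 36 to 72 h exceeded that of 12 to 24 h by 1.09 on the log2 scale (SE 0.128, adjusted p from limma 9.1e-05), a contrast that 5.76% of the transcripts passed in this direction and that does not use the non-exposed libraries. Its split of the time points was chosen with earlier results of these data known. The fit took every library as independent. By the study's methods, however, animals for successive time points were sampled from pools exposed together. The SE and p of this contrast, here and for the transcripts below, do not allow for that. Its early and late libraries also differed in how many transcripts were listed at 0, as given below. The single step from 24 to 36 h was 0.96 (SE 0.222) with no overlap of libraries, as for 7.87% of the transcripts, and its adjusted p was 0.0723, in a comparison where 0.0993% were called higher. The call at each of the 3 late time points remained with any 1 of the 21 Long libraries left out.

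In the Short course the SOD was at 162, 170 and 229 TPM in the non-exposed libraries (187 ± 36.5, SD, n = 3). It stood at 323, 245 and 273 TPM at 1 h, at 195, 235 and 223 TPM at 2 h and at 282, 253 and 274 TPM at 3 h. The 1 and 3 h libraries were all above the non-exposed ones and the 2 h libraries were not. At 4 h the values were 268, 190 and 161 TPM, at 5 h 381, 203 and 179 TPM and at 6 h 248, 236 and 281 TPM. The spread was widest at 5 h, where replicate 1 was at over 1.5 times the others. At 9 h the SOD was at 305, 252 and 290 TPM and at 12 h at 387, 232 and 353 TPM, all 6 above the non-exposed libraries. The 8 log2 fold changes were between 0.13 at 4 h and 0.78 at 12 h (SE 0.242), with adjusted p from limma of 0.0796 to 0.843, and no time point was called. Its libraries did not overlap with the non-exposed ones at 5 of the 8 time points. Among all transcripts tested, no overlap in this direction was found for 5.54% at 1 h, 7.12% at 2 h, 6.64% at 3 h, 7.11% at 4 h, 6.39% at 5 h, 8.42% at 6 h, 15.2% at 9 h and 11.9% at 12 h. Calls upwards were made for 0.223%, 0.513%, 0.314%, 0.753%, 1.22%, 1.41%, 2.31% and 1.75% at these times.

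Peroxiredoxin-2 rose at the same late time points of the Long course as the SOD, and by less. It was 2.26 to 2.28 times its non-exposed level from 36 to 72 h and was called at all 3 of these time points. In the Short course it was highest 1 h after exposure, the first time sampled, and was called at no time point.

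The non-exposed Long libraries held peroxiredoxin-2 at 455.6, 641 and 482 TPM (526 ± 100, SD, n = 3). At 12 h the levels were 778, 704 and 820 TPM (768 ± 58.8), at 18 h 726, 761 and 828 TPM (771.6 ± 51.8) and at 24 h 663, 680 and 865 TPM (736 ± 112). All 9 were above the non-exposed libraries, with log2 fold changes of 0.56, 0.57 and 0.49 that did not pass the test (adjusted p from limma of 0.238, 0.215 and 0.356). The libraries of 8.22%, 10.2% and 5.01% of all transcripts lay wholly above at these times.

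At 36 h peroxiredoxin-2 was at 954, 1523 and 1152 TPM (1210 ± 289, SD, n = 3), at 48 h at 1260, 1354 and 964 TPM (1193 ± 204) and at 72 h at 1392, 1097 and 1068 TPM (1186 ± 179). The lowest of these 9 libraries exceeded the highest of the 9 from 12 to 24 h, again as for 0.984% of all transcripts. The log2 fold change was 1.19 (SE 0.206, adjusted p from limma 0.0115) at 36 h, 1.18 (adjusted p 0.00649) at 48 h and 1.18 (adjusted p 0.00287) at 72 h, nearly the same value at each. Of all transcripts tested, 0.811%, 1.4% and 2.12% were called higher at these times. From 12 to 24 h on to 36 to 72 h the level rose by 0.64 on the log2 scale (SE 0.119, adjusted p from limma 0.00151). The step from 24 to 36 h was 0.70 with no overlap, as for 7.87% of the transcripts, and its adjusted p was 0.122. Without replicate 2 of 36 h, the highest library, the 36 h change was 1.01 with an adjusted p of 0.0715 and the call was lost.

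The size of the late change depends on the non-exposed libraries it is set against. Peroxiredoxin-2 was at 570, 736 and 818 TPM in the non-exposed Short libraries (708 ± 126, SD, n = 3), against 526 ± 100 in the Long ones, a difference of -0.43 on the log2 scale (SE 0.193, adjusted p from limma 0.228 over all 16 groups). Against the Short non-exposed libraries its log2 changes were 0.76 at 36 h, 0.75 at 48 h and 0.75 at 72 h, with adjusted p of 0.0206, 0.0428 and 0.0241, and none was called, while 0.885%, 0.364% and 0.513% of all transcripts were called higher in these comparisons. The SOD was called against either reference, with 1.18, 1.39 and 1.44 against the Short one. The Long non-exposed libraries listed 163 to 255 of the 7238 abundant transcripts (20 TPM or more on average) at 0, against 18 to 145 in the Short non-exposed and 8 to 63 in the Long libraries from 36 to 72 h. The Long libraries from 12 to 24 h, the early side of the contrast with 36 to 72 h, listed 10 to 792 at 0. The part of the missing values in the changes against non-exposed was not tested. With any 1 of the 21 Long libraries left out, the contrast of 36 to 72 h with 12 to 24 h stayed at 1.03 to 1.14 for the SOD. It stayed at 0.58 to 0.70 for peroxiredoxin-2 and at 0.42 to 0.57 for thioredoxin-2.

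In the Short course peroxiredoxin-2 was at 1320, 1084 and 1266 TPM at 1 h (1223 ± 124, SD, n = 3), all above the non-exposed libraries. It was at 1119, 827 and 879 TPM at 2 h and at 1118, 922 and 1026 TPM at 3 h. These 6 libraries also lay above the non-exposed ones. Of all transcripts, 5.54% at 1 h, 7.12% at 2 h and 6.64% at 3 h had no overlap in this direction. At 4 h it was at 995, 840 and 675 TPM, at 5 h at 967, 888 and 1201 TPM and at 6 h at 978, 957 and 1118 TPM. Only the 4 h libraries overlapped with the non-exposed ones among these, and 6.39% of all transcripts at 5 h and 8.42% at 6 h lay wholly above. At 9 h it was at 941, 663 and 888 TPM and at 12 h at 1042, 811 and 1166 TPM, again overlapping. The change at 1 h was 0.80 on the log2 scale (SE 0.191, adjusted p from limma 0.0419), past the p threshold and under the fold, and 0.364% of all transcripts passed that p threshold upwards. The median of all transcripts tested was at -0.28 in the same comparison, and with median scaling the peroxiredoxin-2 change was 1.10 and was called. The other 7 log2 changes lay between 0.23 and 0.54 with adjusted p of 0.125 or more. The mean of 9 and 12 h differed from that of 1 to 3 h by -0.22 (SE 0.123, adjusted p 0.289), where the median transcript differed by 0.25.

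Thioredoxin-2 was the most abundant of the 3 in every group and the only one called in the Short course. It was called there at 12 h, at 2.07 times its non-exposed level, and at no time point of the Long course, where its largest change, at 72 h, passed the p threshold and fell short of the fold.

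The Short non-exposed libraries were at 886, 954 and 1531 TPM of thioredoxin-2 (1124 ± 354, SD, n = 3). It stood at 1392, 1246 and 1783 TPM at 1 h, at 2466, 1181 and 1424 TPM at 2 h and at 1902, 1907 and 2065 TPM at 3 h. The 3 h libraries were the first to lie wholly above the non-exposed ones. At 4 h the values were 1677, 1277 and 2099 TPM, at 5 h 2024, 1677 and 1800 TPM and at 6 h 2143, 2184 and 1771 TPM. At 9 h they were 2068, 1676 and 2013 TPM and at 12 h 2654, 1744 and 2468 TPM (2288 ± 481). From 5 h on every library was above the highest non-exposed one, and over the course 19 of 24 exposed libraries were. No overlap in this direction was found for 6.64% of all transcripts at 3 h and 6.39% at 5 h. At 6, 9 and 12 h it was found for 8.42%, 15.2% and 11.9%. The log2 fold change was 0.42 at 1 h and 0.84 at 3 h, and 1.05 (SE 0.251, adjusted p from limma 0.0187) at 12 h, where 1.75% of all transcripts were called higher. At 6 h it was 0.89 with an adjusted p of 0.0533 and at 9 h 0.81 with 0.0732.

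The call at 12 h rests on single libraries. It was lost without non-exposed replicate 1 (0.90, adjusted p from limma 0.0955), non-exposed replicate 2 (0.95, 0.0808), 12 h replicate 1 (0.93, 0.0991) or 12 h replicate 3 (0.98, 0.0855). Without non-exposed replicate 3, the highest of the non-exposed libraries, the changes at 6 h (1.14, adjusted p 0.0230), 9 h (1.05, 0.0337) and 12 h (1.29) of thioredoxin-2 were all called.

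In the Long course thioredoxin-2 was at 925, 1508 and 1065 TPM in the non-exposed libraries (1166 ± 304, SD, n = 3), at 1433, 1068 and 1403 TPM at 12 h and at 1249, 1653 and 1301 TPM at 18 h. At 24 h it was at 2226, 1709 and 1203 TPM, with replicate 1 the highest. Up to 24 h the groups overlapped with the non-exposed one. At 36 h it was at 1828, 2502 and 2108 TPM (2146 ± 339), at 48 h at 1393, 2298 and 1739 TPM (1810 ± 457) and at 72 h at 2976, 2064 and 1779 TPM (2273 ± 626). The 36 and 72 h libraries lay above the non-exposed ones, as for 10.3% of all transcripts at each time, and those of 48 h overlapped with them. The log2 fold change was 0.90 (SE 0.275, adjusted p from limma 0.0982) at 36 h, 0.64 (adjusted p 0.180) at 48 h and 0.96 (adjusted p 0.0325) at 72 h, where 2.55% of all transcripts passed the p threshold upwards. Without non-exposed replicate 2 or 72 h replicate 3 the change at 72 h was 1.16 or 1.12 and was called. The mean of 36 to 72 h exceeded that of 12 to 24 h by 0.50 (SE 0.159, adjusted p 0.0327). This was no longer past the threshold without 12 h replicate 2 (0.45), 18 h replicate 1 (0.47) or 3 (0.48), 24 h replicate 3 (0.42), 36 h replicate 2 (0.46), 48 h replicate 2 (0.43) or 72 h replicate 1 (0.43), with adjusted p of up to 0.0756.

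**Figure D2:**
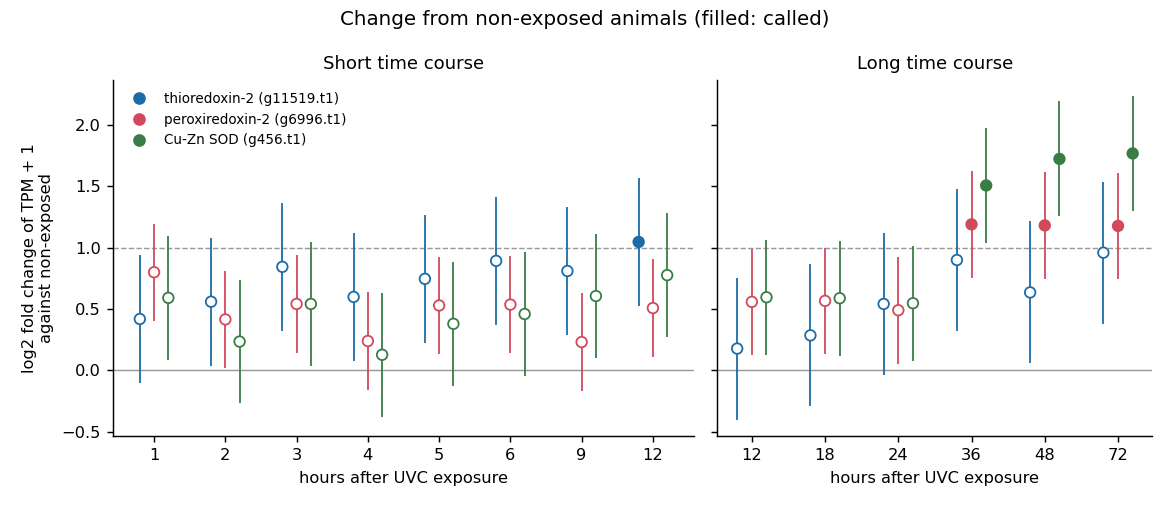
Log2 fold change of TPM + 1 against the non-exposed libraries of the same course, by hours after UVC exposure, for thioredoxin-2 (blue), peroxiredoxin-2 (red) and the SOD (green), with 95% confidence intervals from limma (n = 3 libraries per group) and a dashed line at 1. Filled circles are called: thioredoxin-2 at 12 h of the Short course, and peroxiredoxin-2 and the SOD at 36, 48 and 72 h of the Long course.

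Across the 14 comparisons with non-exposed animals all 3 log2 fold changes were above 0, from 0.13 for the SOD at 4 h to 1.77 for the SOD at 72 h. The comparisons within a course share their 3 non-exposed libraries, so the signs are not independent. The members were also chosen with earlier results known, and the share of all transcripts above 0 throughout is not given here. In whole animals, more cells of a type and more RNA per cell cannot be told apart. By the moderated F test over a whole course none of the 3 passed in the Short course, with adjusted p from limma of 0.102 for thioredoxin-2, 0.109 for peroxiredoxin-2 and 0.227 for the SOD, where 9.70% of all transcripts passed. In the Long course the SOD (adjusted p 0.00113) and peroxiredoxin-2 (0.00559) passed and thioredoxin-2 (0.103) did not, with 10.4% of all transcripts passing. The F tests, too, took every library as independent, although libraries of different times may share an exposure. No member was called at any of the 12 steps between adjacent time points.

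Ordered by mean TPM over the 16 groups, both non-exposed groups were the lowest for each member. The highest groups of the SOD were Long 36, 48 and 72 h, with a gap from Short 12 h (324 TPM) to Long 36 h (425 TPM). Their libraries nonetheless overlapped, since replicate 1 of Short 12 h was at 387 TPM and replicate 1 of Long 36 h at 358 TPM. For peroxiredoxin-2 the highest group was Short 1 h (1223 TPM), followed by Long 36 h (1210), 48 h (1193) and 72 h (1186), which overlapped with one another. For thioredoxin-2 the highest was Short 12 h (2288 TPM), then Long 72 h (2273) and Long 36 h (2146), also overlapping.

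The 3 transcripts did not change by the same factor in the libraries measured. For each library the log2 level of 1 member was subtracted from that of another. These differences were compared between the non-exposed and the late libraries with exact two-sided permutation tests, 6 in all, adjusted together. The tests took every library as independent. By the study's methods, however, animals for successive time points were sampled from pools exposed together. Late libraries of different times may thus share an exposure, and the exact p may be too small. The late windows were also chosen with earlier results of these data known. The share of other transcript pairs that separate in this way is not given here. In the Long course the SOD rose from -1.82 ± 0.169 (SD, n = 3) against peroxiredoxin-2 in the non-exposed libraries to -1.34 ± 0.153 (n = 9) from 36 to 72 h, by 0.48 (exact permutation p = 0.00455, the smallest that the 220 splits can give, adjusted 0.0136), with 9 of 9 late libraries above all non-exposed ones. Against thioredoxin-2 it rose by 0.83 (exact permutation p = 0.00455, adjusted 0.0136, 9 of 9). Peroxiredoxin-2 against thioredoxin-2 differed by 0.35 (exact permutation p = 0.0636, adjusted 0.0636, 8 of 9 libraries higher), which did not pass. Without 48 h replicate 1 or 72 h replicate 1 it was 0.27 or 0.39 and passed, with adjusted p of 0.0182 and 0.0291 from the exact test.

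In the Short course, where 9 and 12 h were compared with the non-exposed libraries, the order was another. Thioredoxin-2 gained on both others: peroxiredoxin-2 against thioredoxin-2 went from -0.64 ± 0.264 (SD, n = 3) to -1.20 ± 0.117 (n = 6), a change of -0.56 (exact permutation p = 0.0119, the smallest that 84 splits can give, adjusted 0.0238), lower in 6 of 6 libraries. The SOD changed by -0.24 against thioredoxin-2 (exact permutation p = 0.0238, adjusted 0.0357), where the groups overlapped in part, and by 0.32 against peroxiredoxin-2 (exact permutation p = 0.0357, adjusted 0.0429), with 6 of 6 libraries higher. Leaving out any 1 non-exposed library, which leaves fewer splits, raised all 3 adjusted p to between 0.0536 and 0.0714, and leaving out 12 h replicate 3 raised those of the SOD against peroxiredoxin-2 (0.35, adjusted p 0.0636) and against thioredoxin-2 (-0.24, adjusted p 0.0536). The libraries of several time points were pooled in these tests as if independent, so these p may also be too small. The p of both courses therefore do not show whether the differences would hold over separate exposures.

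**Figure D3:**
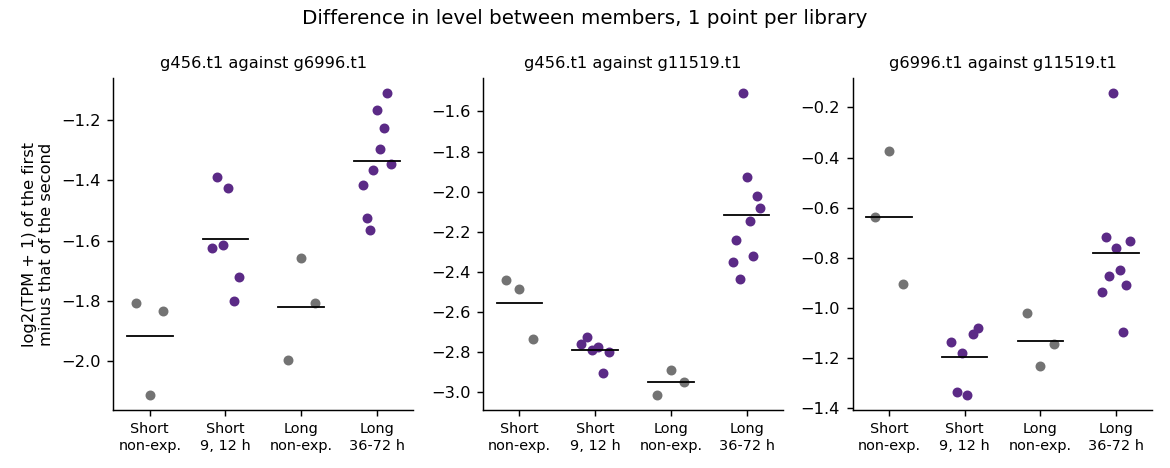
Difference in log2(TPM + 1) between 2 members in each library (vertical axis; panels name the first and the second member), with 1 point per library and a line at the mean, for non-exposed libraries (grey) and late ones (purple) of each course. The SOD stands higher against both others in the 9 late Long libraries, and peroxiredoxin-2 stands lower against thioredoxin-2 in the 6 late Short libraries.

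Only 12 h was sampled in both courses, in separate exposures. Thioredoxin-2 changed by 1.05 at 12 h of the Short course and by 0.18 at 12 h of the Long course, a difference of -0.87 (SE 0.370, unadjusted p 0.0244, adjusted p from limma 0.629 over all 16 groups) that did not pass. The Long change was 0.03 without non-exposed replicate 1 and 0.38 without non-exposed replicate 2, and was called in neither case. In the difference between courses 0.00827% of all transcripts were called lower. At 12 h itself its levels were 2288 ± 481 TPM in Short and 1302 ± 203 TPM in Long (n = 3 each) with no overlap, as for 7.7% of all transcripts in this direction, and a log2 difference of -0.80 (SE 0.261, adjusted p 0.110), in a comparison where 0.0993% were called lower. The differences in change were 0.05 (95% interval -0.50 to 0.61) for peroxiredoxin-2 and -0.18 (-0.85 to 0.49) for the SOD. The 95% interval for thioredoxin-2, -1.62 to -0.12, overlapped both. Whether the members differed from one another in this was not tested.

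Peroxiredoxin-2 and the SOD also varied together among late libraries. Over the 9 Long libraries from 36 to 72 h the Pearson r of their log2(TPM + 1) was 0.83 (Spearman 0.80), and over the 9 from 12 to 24 h it was 0.07 (0.12). As deviations from the group means the r was 0.82 over the 21 Long and 0.43 over the 27 Short libraries. For thioredoxin-2 with peroxiredoxin-2 the r was 0.59 from 36 to 72 h and -0.51 from 12 to 24 h, and with the SOD 0.57 and -0.36. The values of a library share its total, so these r are given as descriptions.

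**Figure D4:**
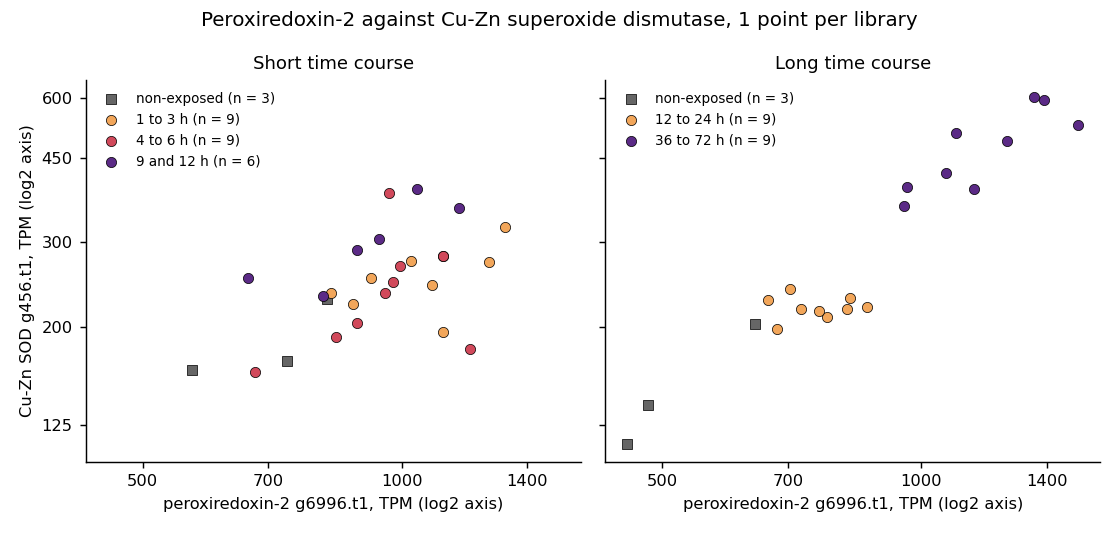
TPM of the SOD (vertical, log2 axis) against TPM of peroxiredoxin-2 (horizontal, log2 axis), 1 point per library, in the Short and Long time course, coloured by time. The 9 Long libraries from 36 to 72 h (purple) stand apart from the other Long libraries at the upper right, while in the Short panel 2 libraries, replicate 1 of 5 h (967 and 381 TPM) and of 12 h (1042 and 387 TPM), reach the same region.

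Vitellogenin-6 (g772.t1), a yolk precursor, also moved between the same time points. It was at 1996 to 2780 TPM in the non-exposed Long libraries, at 363 to 4137 TPM from 12 to 24 h and at 648 to 7920 TPM from 36 to 72 h, and its late-minus-early difference of 1.34 (SE 0.391, adjusted p from limma 0.0207) passed the test. It was called at none of the 6 Long time points. Its part in the late rise of the members was not tested.

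The lists used for the pathway include the 3 members themselves, and the counts below are of the other transcripts. The lists hold transcripts that the study itself had listed as higher in these samples or during drying, so their counts are not independent evidence of a direction. Of all transcripts tested, 3.57% were called higher and 4.29% lower at any Short time point. At any Long time point 3.04% were called higher and 9.36% lower. With shares this low, a small list without a transcript called lower does not show a direction.

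Of the 6 other transcripts of the thioredoxin system, 3 rose at 1 or more Short time points, 2 at Long ones and 0 fell. Their median log2 fold change lay between 0.37 and 0.91 over the Short and between 0.56 and 1.08 over the Long time points, where the median of all transcripts tested lay between -0.28 and 0.12 and between -0.14 and 0.07. The match to thioredoxin domain-containing protein 17 (g11396.t1), a thioredoxin-fold protein, rose at 6 Short time points, where thioredoxin-2 was called at 1. It went from 124, 126 and 134 TPM in the non-exposed libraries to 469, 336 and 476 TPM at 12 h and was called at 2, 4, 5, 6, 9 and 12 h, with log2 fold changes of 1.22, 1.10, 1.50, 1.52, 1.44 and 1.71. In the Long course it was not called, and its level fell by 0.98 from 12 to 24 h on to 36 to 72 h (adjusted p from limma 0.0228), a fall that 16% of all transcripts passed, where thioredoxin-2 rose.

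The match to thioredoxin-like protein 1 (g7593.t1), a cytosolic thioredoxin relative, was called at the same late Long time points as the SOD and peroxiredoxin-2. Its levels were 50.4, 44.8 and 35.6 TPM in the non-exposed libraries and 131, 134 and 96.8 TPM at 36 h, with log2 fold changes of 1.45, 1.14 and 1.26 at 36, 48 and 72 h. It was also called at 5 h of the Short course (1.08). Peptide methionine sulfoxide reductase (g9202.t1), which repairs oxidised methionine with thioredoxin as the electron donor, was called at Short 5 h (1.06) and at Long 12 h (2.43, SE 0.540, adjusted p from limma 0.0446). The Long value is set against non-exposed libraries of 88.3, 15.9 and 122 TPM.

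A second transcript with the thioredoxin-2 match, g11522.t1, was at 386, 156 and 530 TPM in the Short and 407, 429 and 231 TPM in the non-exposed Long libraries. It was called nowhere. At Long 72 h it was at 803, 728 and 633 TPM (1.06, adjusted p from limma 0.0944), and its late-minus-early difference of 0.72 (adjusted p 0.0344) passed the p threshold. Thioredoxin reductase 1 is listed as 2 isoforms of 1 gene, g4356.t1 and g4356.t2, neither of which was called. Their levels ran from 0 to 248 TPM for g4356.t2 in the Short libraries, and how reads were divided between them is uncertain.

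The 1 other peroxiredoxin was called nowhere. This mitochondrial one (g5429.t1), which acts on peroxide inside mitochondria, was at 54.6, 61.6 and 35.0 TPM in the non-exposed Long libraries and at 43.8, 32.3 and 83.5 TPM at 72 h, with a change of 0.00 (SE 0.509). Its late-minus-early difference was -0.74 (adjusted p from limma 0.0844).

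Of the 4 other Cu-Zn superoxide dismutases, 1 (g6658.t1) was called higher in the Short course and 0 in the Long course, and 0 were called lower. g6658.t1 went from 52.1, 86.1 and 106 TPM to 178, 150 and 194 TPM at 1 h (1.14, adjusted p from limma 0.0466) and was also called at 5 h (1.05). It did not pass at late Long time points, where its changes were -0.46, 0.14 and -0.09. g455.t1, encoded on the same scaffold and strand as g456.t1 and next to it by number, was at 142, 112 and 294 TPM in the non-exposed Long libraries, at 529, 531 and 367 TPM at 48 h and at 595, 556 and 296 TPM at 72 h. Its changes of 1.48 and 1.46 did not pass (adjusted p 0.138 and 0.116), but its late-minus-early difference did, at 1.51 (SE 0.337, adjusted p 0.00466). g11595.t1 and g10526.t1 were called nowhere. The median log2 fold change of these 4 lay between -0.28 at 4 h and 0.39 at 12 h in the Short course. In the Long course it lay between -0.11 at 12 h and 1.27 at 48 h, and was 0.92 at 72 h. The median of all transcripts tested was -0.04 at 48 h and -0.14 at 72 h. Of the 18 exposed Long libraries, 17 were above all non-exposed ones for g10526.t1, 9 for g455.t1, 6 for g11595.t1 and 0 for g6658.t1. Reads could be shared between g455.t1 and g456.t1, and between the 2 thioredoxin-2 transcripts. With each such pair added up, the SOD changes were 1.04 (adjusted p 0.0996) at 36 h, 1.55 at 48 h and 1.57 at 72 h, so that the call at 36 h was lost, and the thioredoxin-2 change at Short 12 h was 0.92 and no longer a call.

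**Figure D5:**
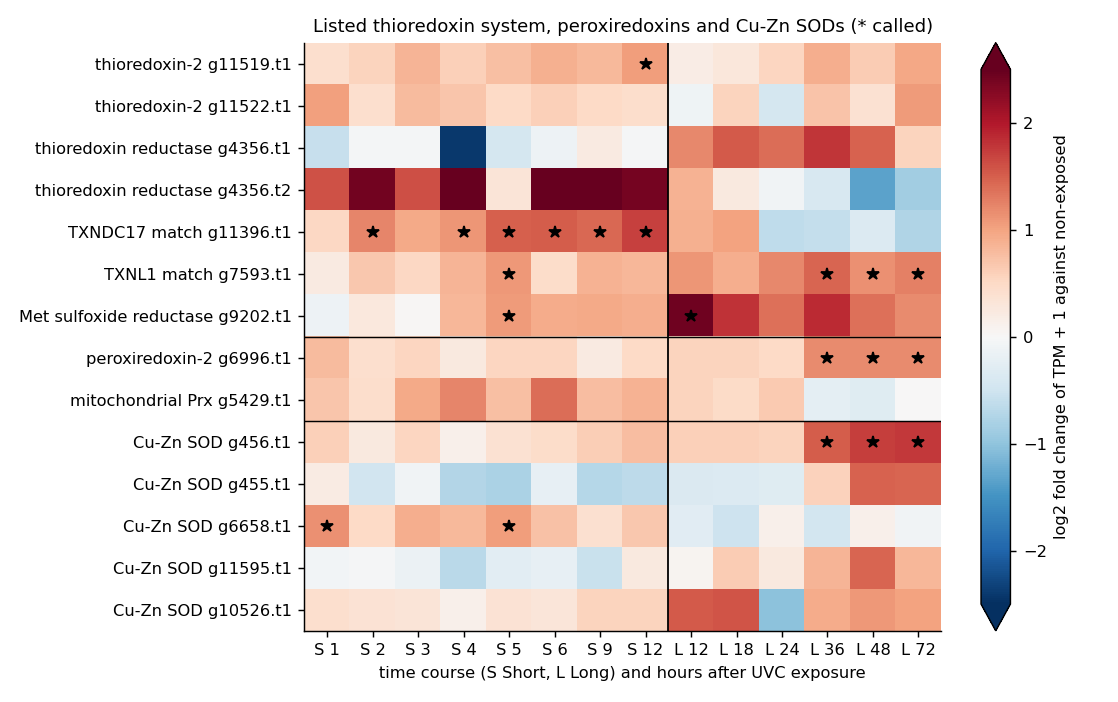
Log2 fold change of TPM + 1 against non-exposed (colour scale, clipped at 2.5 either way) for the 14 listed thioredoxin-system, peroxiredoxin and SOD transcripts (rows) at the 8 Short and 6 Long time points (columns), with a star where called. The stars of the SOD g456.t1 and peroxiredoxin-2 g6996.t1 stand at Long 36, 48 and 72 h, as do 3 of the 4 stars of g7593.t1, and those of g11396.t1 at 6 Short time points.

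Of the 12 glutathione enzymes, which conjugate or process the other main thiol of the cell, 2 were called higher at any Short and 3 at any Long time point, and 0 were called lower. The largest called rise was 1.18 in the Short course, for the glutathione hydrolase 1 match g12686.t1 at 9 h, and 1.56 in the Long course, for the S-formylglutathione hydrolase match g1737.t1 at 72 h. That transcript was itself lower in the Long than in the Short non-exposed libraries by a log2 difference of -1.73 (adjusted p from limma 0.0112). The median log2 fold change of these 12 lay between -0.06 at Short 4 h and 1.32 at Long 72 h, where that of all transcripts tested was -0.14.

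By Pearson r of log2(TPM + 1) over the 48 libraries, the transcripts most like thioredoxin-2 were g675.t1 (0.73), matched to a cytosolic-abundant heat soluble protein (CAHS, a tardigrade protein family linked to drying), a dehydrogenase/reductase match g1040.t1 (0.68), a glutathione S-transferase g9608.t1 (0.67), g3792.t1 with no listed match (0.64) and peroxiredoxin-2 (0.62). Most like peroxiredoxin-2 were the dihydrodiol dehydrogenase match g13139.t1 (0.80), g241.t1 with no listed match (0.79), the SOD g456.t1 (0.78), a cytochrome P450 match g3940.t1 (0.77) and g5362.t1 with no listed match (0.76). Most like the SOD were g5971.t1 (0.83), also a CAHS match, g807.t1 (0.82), g241.t1 (0.80), g290.t1 (0.80) and g1040.t1 (0.78). Groups of libraries share conditions, and as deviations from the group means the r of these 15 pairs was 0.38 to 0.62.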

How the data were processed

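Polyadenylated RNA of whole animals was sequenced in 48 libraries. The authors demultiplexed the reads with bcl2fastq, checked them with FastQC, quantified them with kallisto against their gene set, and deposited TPM per transcript and library, unpooled. Each column sums to 1000000, so TPM is relative to the rest of a library, and keeps no depth. Read totals that the study gives for its own mapping were not used here, and precision comes from the spread between libraries. The study's own test used DESeq2 on counts that were not used here.

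The members, the lists and the early and late time windows were chosen with earlier results of these data known. Groups were taken from the sample labels. log2(TPM + 1), which understates changes of low transcripts, was fitted with limma 3.58.1 (R 4.3.3, eBayes with a trend) over all groups of a course for the 12088 transcripts that average 1 TPM or more. Figures used matplotlib 3.10.9. The fit was tested on simulated data. The text names the 3 members, 4 lists of relatives, vitellogenin and the 5 transcripts most correlated with each member. The main choices were varied by a pseudocount of 0.1 or 5, a filter at 5 TPM or none, median scaling, quantile normalization, a replicate block, array weights, fits of 2 groups, no fold threshold and each library left out. Added after seeing the data were the Short non-exposed reference, leaving out the 4 exposed libraries with most zeros, and summed neighbours.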

Additional observations from a re-analysis of the deposited data

How the results depend on the processing

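The late Long calls of the SOD held under every alternative except 2: a fit of only the 2 groups compared (36 h, 1.51, adjusted p from limma 0.0732) and summed neighbours (36 h, 1.04, adjusted p 0.0996). Those of peroxiredoxin-2 fell under the fold with quantile normalization (0.97, 0.98 and 0.94 at 36, 48 and 72 h, 0 called) and against the Short non-exposed libraries (0.76, 0.75 and 0.75, 0 called), and in fits of 2 groups only 72 h was called (1 time point; 1.19 and 1.18 at 36 and 48 h, adjusted p 0.0891 and 0.0542). The Short 12 h call of thioredoxin-2 was lost in the fit of 2 groups (1.05, adjusted p 0.154, 0 called) and with summed neighbours (0.92, 0 called). Its Long count was 1 with median scaling, with no fold threshold and against the Short reference, and its Long late-minus-early difference was 0.25 (adjusted p 0.263) with quantile normalization. The Short late-minus-early difference of thioredoxin-2 passed with array weights (0.36, adjusted p 0.0445) and that of peroxiredoxin-2 with median scaling (-0.47, adjusted p 0.0444), while that of the SOD changed sign with median scaling (-0.023) and summed neighbours (-0.11). Peroxiredoxin-2 had 1 Short call with median scaling or no fold threshold. Summed neighbours turned the SOD changes at Short 2, 4, 5 and 9 h to -0.14, -0.33, -0.16 and -0.038. With a pseudocount of 5 the SOD against peroxiredoxin-2 in the Short course was 0.31 (adjusted exact permutation p 0.0571). The causes were not tested.

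With 1 library left out, the changes ranged from 0.90 to 1.29 for thioredoxin-2 at Short 12 h (0 to 3 Short calls, 0 to 1 Long calls) and from 0.42 to 0.57 for its Long late-minus-early difference. Peroxiredoxin-2 ranged from 1.01 to 1.35 at Long 36 h. The 12 h difference between courses ranged from -0.10 to 0.20 for peroxiredoxin-2, with -0.04, 0.00 (-0.0045), -0.06 and -0.10 on the other side of 0, and from -0.40 to 0.051 for the SOD, whose Short 4 h change ranged from -0.077 to 0.29. The Short comparisons between members ranged from 0.23 to 0.38, -0.33 to -0.18 and -0.69 to -0.43, and the Long peroxiredoxin-2 comparison with thioredoxin-2 from 0.27 to 0.41. Exposed libraries did not deviate together with the non-exposed library of the same number (r of -0.15 to 0.12, all 3 over 0.1 at 0 time points). Libraries were chosen by RIN for each condition, so the same number may not stand for the same exposure at different times. This limits what these correlations and the replicate block can show. Whether same-numbered exposed libraries of different times deviated together was not tested. The replicate block changed the outcome of 0 of 22 results, with for example 1.05 (adjusted p from limma 0.00976) for thioredoxin-2 at Short 12 h. Leaving out the 4 exposed libraries with most zeros changed none of the calls named here. TPM keeps no depth, so no counting error is given for any level.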
